A study of Mus musculus with 32 samples.

Results

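Mouse C2C12 myoblasts treated with trichostatin A (TSA) were compared with untreated cells 12 h after both had been moved to differentiation medium. Members were chosen by title: the 2 control arrays and the 2 TSA arrays of 12 h, which is 4 of the 32 arrays of the series. These 4 belong to an arm of 20 arrays, with control and TSA at 0, 4, 12, 24 and 48 h and 2 arrays per group, where 0 h is growth medium. C2C12 is an established, clonal line of skeletal myoblasts, and the labels name no transgene or deletion in any of these groups. The labels do not give the dose of TSA, when it was added or whether it was removed, and nothing in them shows replicates to be separate cultures. The p-values therefore cover the spread of these samples alone. Total RNA was hybridised to an Affymetrix array, and each probe set has 1 deposited, linear intensity on each array. With 2 arrays per group, precision is limited throughout.

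In differentiation medium myoblasts leave the cell cycle, switch on the transcription factor myogenin under the control of Myod1 and Myf5, and then build sarcomeres and fuse into myotubes. Histone deacetylases remove acetyl groups from histones and other proteins and act with corepressors to keep genes silent; in myoblasts they are known to hold back Myod1 and the Mef2 factors. TSA blocks the zinc-dependent deacetylases, and it does not act on the NAD-dependent sirtuins. Genes of cholesterol synthesis are switched on together by the factor Srebf2 when cell sterol falls, and cells need their products for membranes and for lipid anchors on proteins.

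The 4 arrays were close in scale and RNA quality, though not the same in the 2 groups. Median intensity was 264.8 and 268.7 in control and 253 on both TSA arrays. The share of values at or below 0 was 22.8% and 23.6% in control and 21.6% and 21.8% with TSA. The ratio of 3' to 5' signal of the Gapdh controls was 0.802 and 0.824 in control and 0.781 and 0.799 with TSA. Each of these measures was apart between the groups, and the exact permutation p, two-sided, was 0.333, the smallest that 2 arrays against 2 allow. An array correlated with its mate at Spearman 0.934 in control and 0.957 with TSA. All 8 myoblast markers passed the filter on low values, and their summed intensity was 17517 and 18662 in control and 23720 and 24007 with TSA. Of 44 markers of 7 other cell types 36 were on the array, 15 passed the filter, and limma called 0 of the 15, with 2 at an unadjusted p under 0.05. Of the 36 on the array 7 were at or below 0 on all 4 arrays. These were Ptprc, Cd3e and Itgam of leukocytes, Cdh5 and Vwf of endothelium, Smtn of smooth muscle and Map2 of neurons. The other markers on the array were above 0 on at least 1 of the 4 arrays. The smooth muscle list still summed to 19095 and 21782 in control and 23041 to 23391 with TSA, mostly from the actin Acta2 and Tagln, and the neuron list to 13154 to 14896 and 12606 to 13267, mostly from the tubulin Tubb3 and Stmn2. The leukocyte list summed to 1304 and 1677 in control and 1073 and 1147 with TSA, and the endothelium list to 1105 and 1263 and 697 and 928. For epithelium the sums were 1184 and 1218 in control and 920 and 945 with TSA. In these lists both TSA arrays lay below both control arrays. The bone and cartilage list (1610 and 1838 in control, 1293 and 1615 with TSA) and the adipocyte list (1053 and 1807, 948 and 2134) overlapped between the groups. The part of other cell types in the results was not tested, and on RNA of whole cultures fewer cells of a type cannot be told apart from less RNA per cell.

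TSA changed 304 of 7453 tested probe sets at 12 h, 191 higher and 113 lower, which is 4.08% (adjusted p under 0.05 in a limma fit of all 20 arrays with a mean per group, as is every adjusted p below). Counted as genes, with the tested probe set of highest mean for each, 137 of 5636 were higher (2.43%) and 92 were lower (1.63%). The median log2 change of all 5636 genes was -0.02, and 46.1% had a positive change. An unadjusted p under 0.05 in limma was reached by 981 of the 5636. That number and the 2.43% and 1.63% called are the background for the counts of the gene lists below. Log2 changes are on the scale of log2(intensity + 137.7) with values below 0 set to 0, so those of dim genes are smaller than the ratio of the intensities. Called genes had a median absolute log2 change of 0.86 when higher and 0.85 when lower, and 49 and 37 of them reached 1 or more. In each of the 229 called genes the TSA and control arrays did not overlap, which follows largely from the calls on the same arrays and is no added support. When limma was fitted to these 4 arrays alone, 0 probe sets passed and 1290 had an unadjusted p under 0.05. Without 1 array the count of probe sets was 264 (control replicate 1), 146 (control replicate 2), 140 (TSA replicate 1) or 111 (TSA replicate 2). Of the 229 genes 70, 45 higher and 25 lower, stayed called with each of the 4 arrays left out in turn, and no called gene turned its sign.

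**Figure D1:**
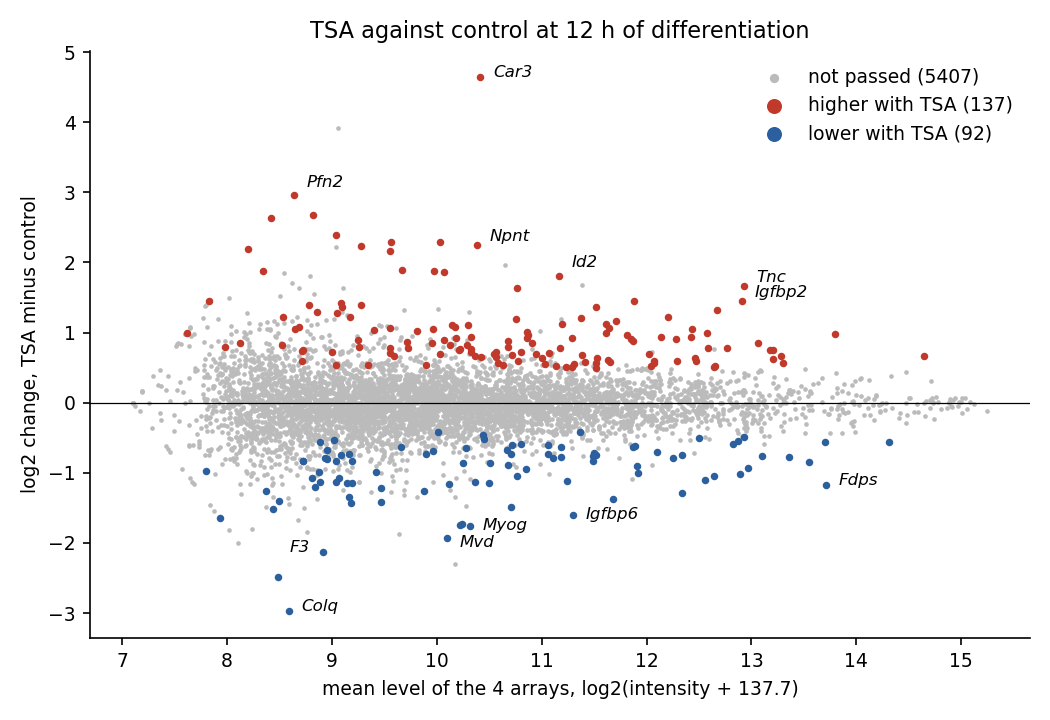
Log2 change, TSA minus control, against the mean level of the 4 arrays of 12 h for 5636 genes, with 1 probe set per gene. Red points are the 137 genes that were higher and blue points the 92 that were lower; Car3 at 4.64 stands highest, and the lower sterol gene Mvd at -1.93 is farther from 0 than Fdps at -1.17.

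The 15 largest rises among called genes with all 4 arrays above 0 lay between 1.45 and 4.64 (log2), and Car3, Npnt, Tnfsf9, Rnase4, Gm2a and Prkg2 were 6 of the 15. Car3, the muscle carbonic anhydrase, read 239 and 61.5 on the control arrays and 7159 and 6234 on the TSA arrays (log2 change 4.64 ± 0.48, adjusted p = 2.25e-04). Both TSA arrays were far above both control arrays, which lay close to the floor of the measure. Npnt, a ligand of the integrin of basement membranes, read 486 and 468 on the control arrays and 2855 and 2699 on the TSA arrays, 5.82-fold higher by group means (log2 change 2.25 ± 0.15, adjusted p = 1.23e-05). Tnfsf9, the ligand of the costimulatory receptor 4-1BB, read 341 and 332 on the control arrays and 2285 and 2085 on the TSA arrays (6.49-fold; log2 change 2.29 ± 0.26, adjusted p = 3.18e-04). In both genes the replicates lay close together and the groups far apart. Rnase4, a secreted ribonuclease, had 1466 and 1391 with TSA against 329 and 242 in control (5.01-fold; log2 change 1.90 ± 0.16, adjusted p = 4.40e-05). Gm2a, the lysosomal activator of ganglioside breakdown, had 1577 and 1338 with TSA against 323 and 138 in control (log2 change 2.16 ± 0.32, adjusted p = 0.00181). These 5 genes stayed called without each array. Prkg2, a kinase regulated by cyclic GMP, had 1858 and 1975 with TSA against 335 and 536 in control (log2 change 1.86 ± 0.37, adjusted p = 0.0133). The Prkg2 call was lost without control replicate 1 (adjusted p = 0.0868), TSA replicate 1 (0.0792) or TSA replicate 2 (0.103).

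Lamb3, a laminin chain of basement membranes, was also high by its fitted change, with 1352 and 741 with TSA against 93.6 and -215 in control (2.68 ± 0.60, adjusted p = 0.0240). The Lamb3 call was lost without control replicate 2 (adjusted p = 0.194), TSA replicate 1 (0.189) or TSA replicate 2 (0.0703).

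Actin-related genes moved in part. Pfn2, a profilin that feeds actin monomers to filaments, read 11.6 and -188 on the control arrays and 958 and 993 on the TSA arrays (log2 change 2.96 ± 0.21, adjusted p = 1.25e-05), with 1 control array below 0. Of 36 tested genes of the actin cytoskeleton 4 rose and 0 fell (median 0.09), and 9 and 2 had an unadjusted p under 0.05 in each direction. Pdlim4, an actinin-binding protein (0.71 ± 0.15, adjusted p = 0.0170), and Msn, the membrane linker moesin (0.63 ± 0.15, adjusted p = 0.0295), were among the 4; the first was lost without control replicate 1 (adjusted p = 0.121), TSA replicate 1 (0.120) or TSA replicate 2 (0.107) and the second without any 1 of the 4 arrays (adjusted p = 0.0689 to 0.197). Actb, the cytoplasmic actin, read 2086 and 2183 on the control arrays and 7333 and 5058 on the TSA arrays (log2 change 1.46 ± 0.31, adjusted p = 0.0171). The Actb call was lost without control replicate 1 (adjusted p = 0.0765), control replicate 2 (0.0972) or TSA replicate 1 (0.171). Another probe set of Actb changed by 0.82 ± 0.33 (adjusted p = 0.228), and the array's own actin control of the 3' end read 25577 and 36531 in control and 28906 and 31517 with TSA, so that there the groups overlapped.

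**Figure D2:**
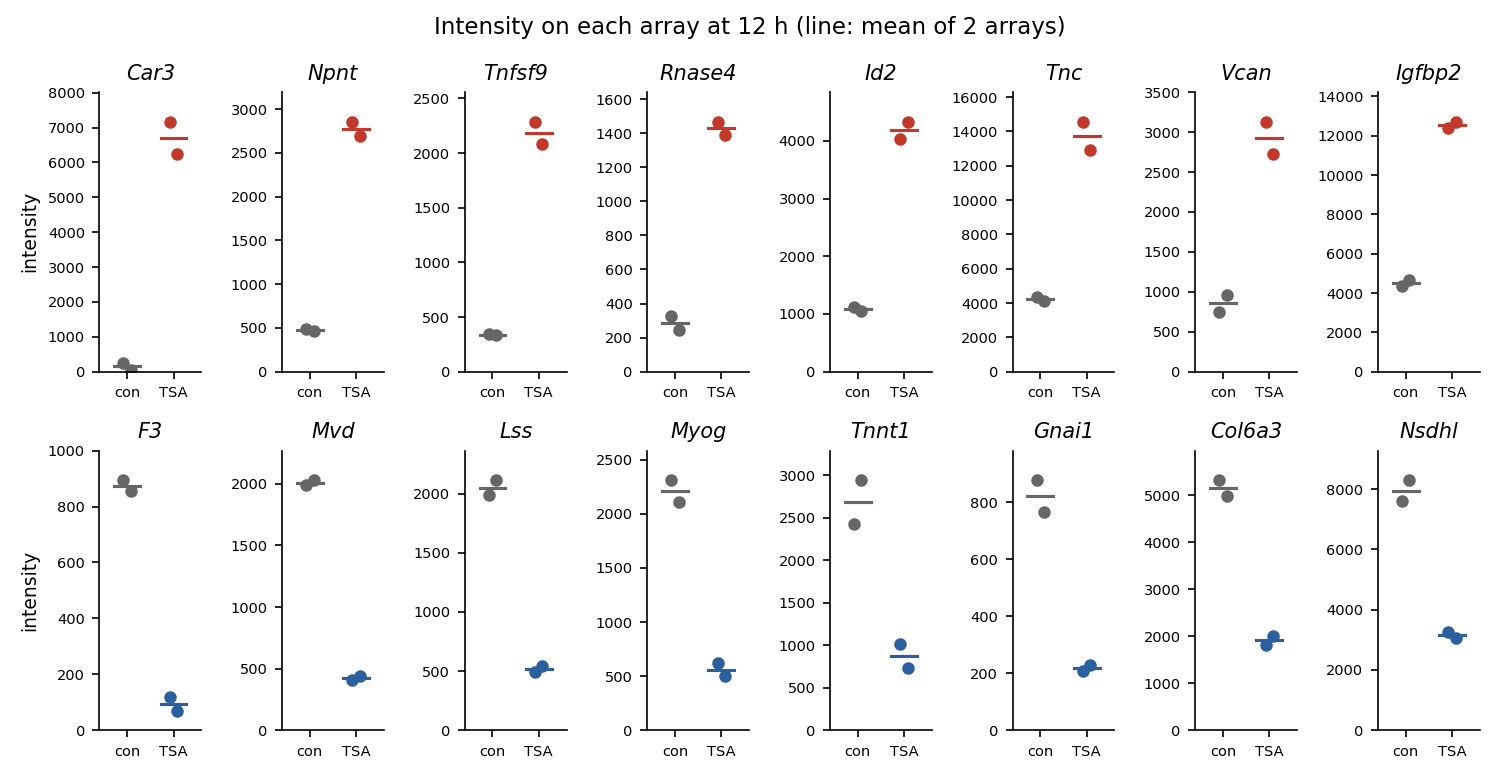
Intensity on each of the 4 arrays of 12 h for 8 genes that were higher (top) and 8 that were lower (bottom) with TSA, each panel with its own axis from 0; points are arrays and lines the mean of 2. In each panel both TSA arrays lie on 1 side of both control arrays, as in Npnt (486 and 468 against 2855 and 2699).

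Genes of cholesterol synthesis were lower with TSA. Of 17 tested members of that pathway 9 fell and 0 rose, and 12 and 0 had an unadjusted p under 0.05. The median log2 change was -0.94 against -0.02 over all genes. In 15 of the 17 both TSA arrays lay below both control arrays. The share over all genes is not given here. In 2 lists with 0 calls the number was 19 of 34 (proteasome and ubiquitin ligases) and 3 of 39 (mitosis). Along the mevalonate arm, Hmgcs1, which makes hydroxymethylglutaryl-CoA, read 10569 and 10822 on the control arrays and 5363 and 5028 on the TSA arrays (log2 change -1.02 ± 0.16, adjusted p = 0.00330). Mvk, the mevalonate kinase, had 1484 and 952 with TSA against 2189 and 2661 in control (log2 change -0.94 ± 0.21, adjusted p = 0.0227). Mvd, which decarboxylates the phosphorylated mevalonate to isopentenyl diphosphate, fell most, to 408 and 441 with TSA against 1991 and 2028 in control, 4.73-fold lower by group means (log2 change -1.93 ± 0.20, adjusted p = 2.25e-04). The isomerase Idi1 had 4168 and 3796 with TSA against 8143 and 9280.5 in control (-1.10 ± 0.13, adjusted p = 4.12e-04). Fdps, which builds farnesyl diphosphate, had 9599 and 8053 with TSA against 19727 and 20310.2 in control (-1.17 ± 0.13, adjusted p = 3.38e-04). In each of these 5 enzymes, as in every called gene, the groups did not overlap, which is no added support.

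The steps from squalene to cholesterol moved in part. Fdft1, squalene synthase, had 2854 and 2509.6 with TSA against 5291 and 4943 in control (-0.90 ± 0.13, adjusted p = 0.00124), and Sqle, the epoxidase that follows it, 4468 and 4166 with TSA against 9092 and 9027 in control (-1.05 ± 0.13, adjusted p = 5.80e-04). Lss, which closes the sterol rings, read 1991 and 2110.3 on the control arrays and 493 and 541 on the TSA arrays, 3.97-fold lower (log2 change -1.74 ± 0.21, adjusted p = 4.71e-04). The demethylase Cyp51, which acts next, had a log2 change of -0.27 ± 0.14, and the reductase Tm7sf2 -0.28 ± 0.13; neither passed. Msmo1, the sterol methyl oxidase, had 2402 and 2403 with TSA against 5133 and 5428 in control and did not pass (log2 change -1.09 ± 0.28, adjusted p = 0.0521). Nsdhl, which works with it to remove methyl groups, had 3263 and 3071 with TSA against 7588 and 8284 in control (2.51-fold lower; log2 change -1.29 ± 0.13, adjusted p = 2.12e-04). Of the remaining steps Hsd17b7 stood at -0.49 ± 0.18, Ebp, the sterol isomerase, at 0.03 ± 0.12, Sc5d at -0.56 ± 0.28 and Dhcr7 at -0.54 ± 0.20, and none of these 4 passed. Ggps1, on the branch to geranylgeranyl diphosphate, stood at 0.32 ± 0.20 and was not called. Of the 9 lower genes 8 stayed called with each array left out, and Mvk was lost without control replicate 2 (adjusted p = 0.188) or TSA replicate 2 (0.237). In the 5 tested genes of sterol uptake and control limma called 0, with 0 at an unadjusted p under 0.05; Srebf1, a sterol and fatty acid regulator, stood at -0.28 ± 0.16.

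**Figure D3:**
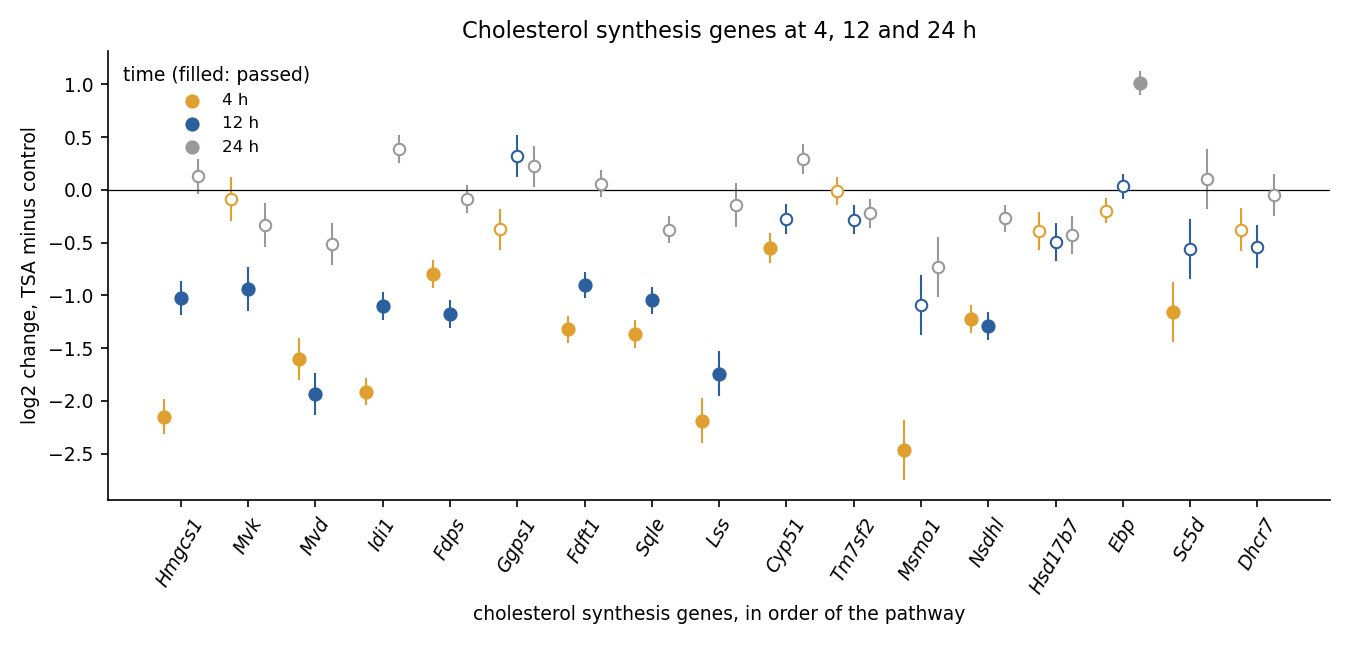
Log2 change, TSA minus control, of the 17 tested genes of cholesterol synthesis in pathway order at 4, 12 and 24 h; bars are standard errors of the fit and filled points passed. At 12 h 9 genes were lower, between -0.90 for Fdft1 and -1.93 for Mvd, while at 24 h 0 were lower and Ebp was higher (1.01).

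Because these genes moved together, their start regions were read from RefSeq, build GRCm38.p6, which held a promoter for 14 of the 17 tested genes and for 6 of the 9 lower ones. The 150 bases before the start of 4 of them are shown, in lower case with CCAAT boxes (CCAAT, or ATTGG on the other strand), GC boxes (GGGCGG, or CCGCCC) and the sterol element (TCACNCCAC) in capitals: Mvd and Lss as the 2 that fell most, Idi1, and Hmgcs1, which alone held the sterol element. The windows are Mvd (chr8:122443423-122443572, minus strand), Lss (chr10:76531455-76531604, plus strand), Idi1 (chr13:8885456-8885605, plus strand) and Hmgcs1 (chr13:119690201-119690350, plus strand).
Mvd: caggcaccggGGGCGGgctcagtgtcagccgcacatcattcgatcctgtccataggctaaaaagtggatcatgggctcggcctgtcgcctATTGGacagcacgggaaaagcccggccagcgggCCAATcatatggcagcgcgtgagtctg
Lss: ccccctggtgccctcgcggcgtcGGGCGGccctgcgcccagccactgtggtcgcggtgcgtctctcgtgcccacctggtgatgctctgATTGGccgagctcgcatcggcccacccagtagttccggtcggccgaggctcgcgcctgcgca
Idi1: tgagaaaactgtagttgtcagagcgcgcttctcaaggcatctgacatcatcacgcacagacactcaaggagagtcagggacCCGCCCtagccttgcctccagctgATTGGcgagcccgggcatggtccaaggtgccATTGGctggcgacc
Hmgcs1: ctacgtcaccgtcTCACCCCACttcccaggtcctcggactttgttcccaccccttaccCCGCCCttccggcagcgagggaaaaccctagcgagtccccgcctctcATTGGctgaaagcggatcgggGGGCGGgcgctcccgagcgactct

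In the 250 bases before the start a CCAAT box on either strand was present in 14 of the 14 genes of the list, against 37.5% of 27025 genes of the table and 40.8% of the tested genes with a promoter. A GC box was present in 13 of 14, against 35.4% and 64.2%. The sterol element was found in 1 of 14, Hmgcs1, against 1.22% and 1.28%. These are matches of letters, not sites, and motifs that overlap were counted separately. Among all lower genes of 12 h a CCAAT box was present in 37.8% and among all higher genes in 42.7%.

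Neighbouring pathways of lipid use fell in part. Of 11 fatty acid synthesis genes 4 fell and 0 rose (median -0.41), beside 1.63% lower over all genes. In this list 6 had a negative and 0 a positive change at an unadjusted p under 0.05 in limma, and 0 of the 11 had a positive change. Scd1, which desaturates stearate, read 11341 and 10550.5 on the control arrays and 5821 and 5489 on the TSA arrays (log2 change -0.94 ± 0.12, adjusted p = 8.72e-04). Acly, which makes cytosolic acetyl-CoA from citrate, had 3577 and 3547 with TSA against 6253 and 6265 in control (-0.79 ± 0.11, adjusted p = 0.00135), and Slc25a1, the mitochondrial citrate carrier, 1524 and 1519 with TSA against 2663 and 2560.4 in control (-0.73 ± 0.10, adjusted p = 8.72e-04). In each of these 3 genes the replicates differed far less than the groups, and the 3 stayed called without each array. Of 2 other probe sets of Scd1 1 fell (-0.98 ± 0.11, adjusted p = 3.00e-04) and a dim one did not pass (-0.18 ± 0.28, adjusted p = 0.830). Elovl6, a fatty acid elongase, had 729 and 497 with TSA against 1741 and 1318 in control (-1.16 ± 0.21, adjusted p = 0.00680). The Elovl6 call was lost without control replicate 1 (adjusted p = 0.0582) or TSA replicate 2 (0.0993). Of 19 genes of fatty acid oxidation 3 fell and 0 rose (median -0.25): Cpt1a, which loads fatty acids onto carnitine (573 and 381 with TSA against 1227 and 1412 in control; -1.26 ± 0.16, adjusted p = 5.73e-04), Acaa2, a thiolase (-0.76 ± 0.09, adjusted p = 5.73e-04), and Acadm, a dehydrogenase (-0.60 ± 0.13, adjusted p = 0.0171), the last lost without any 1 of the 4 arrays (adjusted p = 0.0767 to 0.144). Lpin1, a phosphatidate phosphatase, had 37.6 and 142 with TSA against 346 and 574 in control (-1.41 ± 0.31, adjusted p = 0.0227). The Lpin1 call was lost without control replicate 2 (adjusted p = 0.210) or TSA replicate 1 (0.211). Of 20 glycolysis genes only Tpi1 passed, at 8348 and 9307 with TSA against 15215 and 16603 in control (-0.84 ± 0.13, adjusted p = 0.00314), and 8 of the 20 had a negative change at an unadjusted p under 0.05 (median -0.32).

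Among the myogenic factors, Myog and Myod1 moved in opposite directions. Myog, myogenin, read 2309 and 2107 on the control arrays and 619 and 501 on the TSA arrays, 3.94-fold lower by group means (log2 change -1.75 ± 0.44, adjusted p = 0.0412). Both TSA arrays were at about the level of TSA-treated cells at 0 h (808 and 609) and 4 h (772 and 457), while control cells had risen from -40.8 and 183 at 0 h. At 24 h Myog read 5388 and 5349.98 with TSA against 7209.96 and 8627 in control, and at 48 h 18767 and 20797 with TSA against 18686 and 21516 in control, and neither difference passed (log2 -0.54 and -0.02). Myod1 had 2767 and 2676 with TSA against 1843 and 1913 in control (log2 change 0.50 ± 0.11, adjusted p = 0.0173). The 12 h calls of both were lost with 1 array fewer: Myog without any 1 of the 4 arrays (adjusted p = 0.136 to 0.235) and Myod1 without any 1 of the 4 arrays (adjusted p = 0.0836 to 0.133). Tcf4, a partner of the myogenic factors, had 1588 and 1836 with TSA against 618 and 840.5 in control (1.10 ± 0.23, adjusted p = 0.0169). The Tcf4 call was lost without control replicate 1 (adjusted p = 0.110), TSA replicate 1 (0.0693) or TSA replicate 2 (0.144). The other 10 tested factors did not pass, among them Myf5 (0.58 ± 0.18, adjusted p = 0.103), Mef2c (-0.41 ± 0.33, adjusted p = 0.590) and Mef2d (0.44 ± 0.16, adjusted p = 0.185).

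Of 15 inhibitors of myogenesis 2 rose. Id2, which binds the partners of the myogenic factors and keeps them from DNA, read 1128 and 1058 on the control arrays and 4034 and 4328 on the TSA arrays, 3.83-fold higher (log2 change 1.81 ± 0.25, adjusted p = 0.00124), and stayed called without each array. Control cells lost Id2 along the series, from 5428 and 4434 at 0 h to 133 and 65.8 at 48 h, and TSA-treated cells at 12 h read just below the control level of 0 h. Bhlhe40, a repressor of the same protein family, had 2352 and 2484 with TSA against 1407 and 1040.3 in control (0.92 ± 0.15, adjusted p = 0.00438). The Bhlhe40 call was lost without control replicate 2 (adjusted p = 0.0586) or TSA replicate 2 (0.0543). Id1 read 1389 and 1476 with TSA against 849.8 and 561 in control and did not pass (0.92 ± 0.25, adjusted p = 0.0655), and Id3 read 768 and 526 with TSA against 696 and 773 in control (-0.17 ± 0.34, adjusted p = 0.876), where the groups overlapped.

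**Figure D4:**
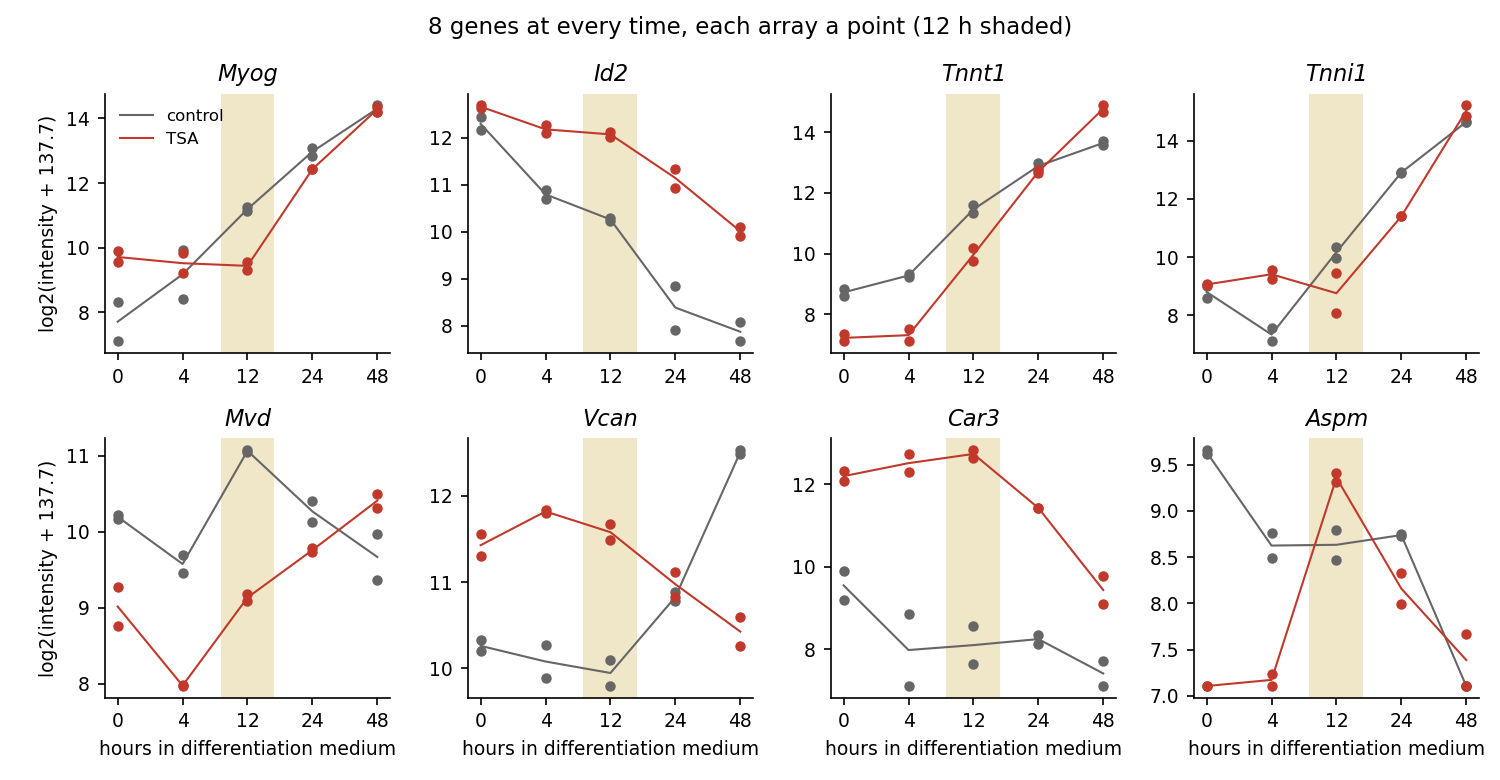
Log2(intensity + 137.7) of 8 genes on each array at 0, 4, 12, 24 and 48 h (evenly spaced on the axis, not to scale), control in grey and TSA in red, with lines through the group means and 12 h shaded. At 12 h the TSA arrays lie below control in Myog, Tnnt1, Tnni1 and Mvd and above it in Id2, Vcan, Car3 and Aspm; for Myog both groups reached 18686 to 21516 at 48 h.

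Sarcomere genes moved in both directions. Of 28 tested 4 fell and 2 rose (median -0.13). Tnnt1, slow troponin T, read 2426 and 2938 on the control arrays and 1014 and 728 on the TSA arrays, 3.08-fold lower (log2 change -1.49 ± 0.18, adjusted p = 4.71e-04), and was the only 1 of the 6 that stayed called without each array. Tnni1, slow troponin I, had 563 and 131 with TSA against 872 and 1178 in control (-1.41 ± 0.34, adjusted p = 0.0356). The Tnni1 call was lost without control replicate 1 (adjusted p = 0.0665), control replicate 2 (0.239) or TSA replicate 2 (0.250). Tnnc1, slow troponin C, had 83.7 and 67.9 with TSA against 236 and 566 in control (-1.27 ± 0.26, adjusted p = 0.0162). The Tnnc1 call was lost without control replicate 2 (adjusted p = 0.156), TSA replicate 1 (0.0854) or TSA replicate 2 (0.121). These 3 encode the subunits of the slow troponin complex, and in each both TSA arrays were below control. Mybph, a myosin-binding protein, had 205 and 268 with TSA against 466 and 543 in control (-0.78 ± 0.14, adjusted p = 0.00707). The Mybph call was lost without control replicate 2 (adjusted p = 0.0836) or TSA replicate 1 (0.0950). Actn3, the actinin of fast fibres, went the other way, with 1736 and 1352 with TSA against 459 and 57.0 in control (2.29 ± 0.46, adjusted p = 0.0129). The Actn3 call was lost without control replicate 2 (adjusted p = 0.120), TSA replicate 1 (0.110) or TSA replicate 2 (0.0640). Myom2, an M-line protein, had 179.6 and 106 with TSA against 4.10 and -47.3 in control (0.99 ± 0.21, adjusted p = 0.0173). The Myom2 call was lost without control replicate 1 (adjusted p = 0.0667), control replicate 2 (0.119) or TSA replicate 1 (0.175). Acta1 (-0.43 ± 0.27), Myl1 (-0.94 ± 0.29) and Tnnc2 (-0.87 ± 0.43) did not pass. At the membrane, Rapsn, which clusters acetylcholine receptors, was the 1 gene of 19 that fell (1881 and 2288 with TSA against 3315 and 3907 in control; -0.76 ± 0.17, adjusted p = 0.0236). The Rapsn call was lost without control replicate 2 (adjusted p = 0.195), TSA replicate 1 (0.199) or TSA replicate 2 (0.0609). Colq, the collagen tail of acetylcholinesterase, read 579 and 1491 on the control arrays and -179.5 and -472 on the TSA arrays, at or below 0 with TSA, so no fold is given (adjusted p = 0.0151, lost without control replicate 2 (adjusted p = 0.156), TSA replicate 1 (0.0960) or TSA replicate 2 (0.103)).

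Few cell cycle genes passed the threshold at 12 h, as few genes did over all lists. With 2.43% of all genes higher and 1.63% lower, a count of 0 or 1 in such a list lies near the background. Of 39 mitosis genes limma called 0, with 2 at an unadjusted p under 0.05, and their log2 changes lay between -0.25 and 0.37 (median 0.11). Aspm, a spindle pole protein outside that list, rose, with 541 and 498 with TSA against 308 and 217 in control (0.73 ± 0.18, adjusted p = 0.0430). The Aspm call was lost without control replicate 2 (adjusted p = 0.310), TSA replicate 1 (0.221) or TSA replicate 2 (0.162). Of 37 DNA replication genes limma called 0, and 3 had an unadjusted p under 0.05. Gas1, a growth arrest protein, was the 1 of 26 genes of cell cycle exit that passed, at 1281 and 888 with TSA against 2378 and 2336 in control (-1.05 ± 0.18, adjusted p = 0.00444). The Gas1 call was lost without TSA replicate 2 (adjusted p = 0.0651). Cdkn1a, the p21 inhibitor of cyclin-dependent kinases, read 1532 and 1196 on the control arrays and 4857 and 4471 on the TSA arrays, 3.42-fold higher, and did not pass (log2 change 1.68 ± 0.54, adjusted p = 0.123); its other probe set, at 4099 and 4121 with TSA against 1625 and 2227 in control, passed (1.06 ± 0.18, adjusted p = 0.00512). Of 15 p53 targets 2 rose and 0 fell (median 0.42), and 8 and 2 had an unadjusted p under 0.05 in each direction. Mdm2, the ligase that limits p53, had 2114 and 2813 with TSA against 1119 and 1499 in control (0.85 ± 0.16, adjusted p = 0.00894). The Mdm2 call was lost without control replicate 1 (adjusted p = 0.0731) or TSA replicate 2 (0.118). Ccng1, cyclin G1, had 2115 and 1928 with TSA against 1346 and 906 in control (0.79 ± 0.19, adjusted p = 0.0347). The Ccng1 call was lost without control replicate 2 (adjusted p = 0.298), TSA replicate 1 (0.199) or TSA replicate 2 (0.129). Ccnd1 (0.50 ± 0.23, adjusted p = 0.301), Ccnd3 (1.02 ± 0.46, adjusted p = 0.287) and Cdkn1c (-0.10 ± 0.21, adjusted p = 0.878) did not pass.

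Genes of deacetylases and acetyltransferases, which include the targets of TSA, were not called: 0 of 22 passed in limma and 5 had an unadjusted p under 0.05. Over all 5636 genes 2.43% were higher and 1.63% lower, and 981 had an unadjusted p under 0.05. Both counts of the list lie near those shares. Hdac1 read 1045 and 802 with TSA against 988 and 1277 in control (-0.26 ± 0.21, adjusted p = 0.606). Among 15 genes reported as inducible by deacetylase inhibition elsewhere 2 were called, both higher (median 0.14). Ccn2, a matricellular growth factor, read 377 and 398 on the control arrays and 1449 and 2188 on the TSA arrays, 4.69-fold higher (log2 change 1.87 ± 0.21, adjusted p = 3.00e-04). Txnip, which binds thioredoxin, had 639 and 518 with TSA against 170.1 and 104 in control (1.39 ± 0.21, adjusted p = 0.00216), while its other probe set stood at -0.10 ± 0.25 (adjusted p = 0.910). H1f2, a linker histone, was the 1 of 5 histone genes that rose (2509 and 2446 with TSA against 1149 and 873 in control; 1.20 ± 0.25, adjusted p = 0.0176). The H1f2 call was lost without control replicate 2 (adjusted p = 0.161), TSA replicate 1 (0.117) or TSA replicate 2 (0.111).

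Matrix genes moved in both directions. Of 49 tested 7 rose and 3 fell, 24 had a positive change, and the median was -0.02, the same as over all genes. Of the called ones 3 higher and 1 lower stayed called without each array. Tnc, tenascin C, read 4381 and 4091 on the control arrays and 14555 and 12936 on the TSA arrays, 3.24-fold higher (log2 change 1.66 ± 0.14, adjusted p = 5.18e-05). Vcan, the proteoglycan versican, read 752 and 959 on the control arrays and 3127 and 2721 on the TSA arrays, 3.42-fold higher (log2 change 1.63 ± 0.17, adjusted p = 2.36e-04). Both were clearly apart, with replicates that differed far less than the groups. Col6a3, a chain of the collagen around muscle fibres, fell, to 1813 and 2008 with TSA against 5317 and 4992 in control (2.70-fold; log2 change -1.37 ± 0.20, adjusted p = 0.00181). In the fusion and adhesion list 4 of 31 rose and 0 fell (median 0.17). Ncam1, the neural cell adhesion molecule, had 4960.1 and 4834 with TSA against 2289 and 2593 in control (0.97 ± 0.13, adjusted p = 7.67e-04), and Cd82, a tetraspanin, 8101 and 7797 with TSA against 4525 and 4574 in control (0.79 ± 0.13, adjusted p = 0.00361). The other probe sets of both did not pass, at 0.11 ± 0.29 for Ncam1 (adjusted p = 0.915) and 0.13 ± 0.22 for Cd82 (adjusted p = 0.845). Cdh15, the muscle cadherin, had 7459 and 7459 with TSA against 4900.2 and 5547 in control (0.51 ± 0.12, adjusted p = 0.0310). The Cdh15 call was lost without any 1 of the 4 arrays (adjusted p = 0.0704 to 0.168). Mcam, an adhesion protein of the immunoglobulin family, read -83.5 and -116 on the control arrays and 676 and 758 on the TSA arrays, at or below 0 in control, so no fold is given (adjusted p = 0.0388, lost without any 1 of the 4 arrays (adjusted p = 0.119 to 0.204)).

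**Figure D5:**
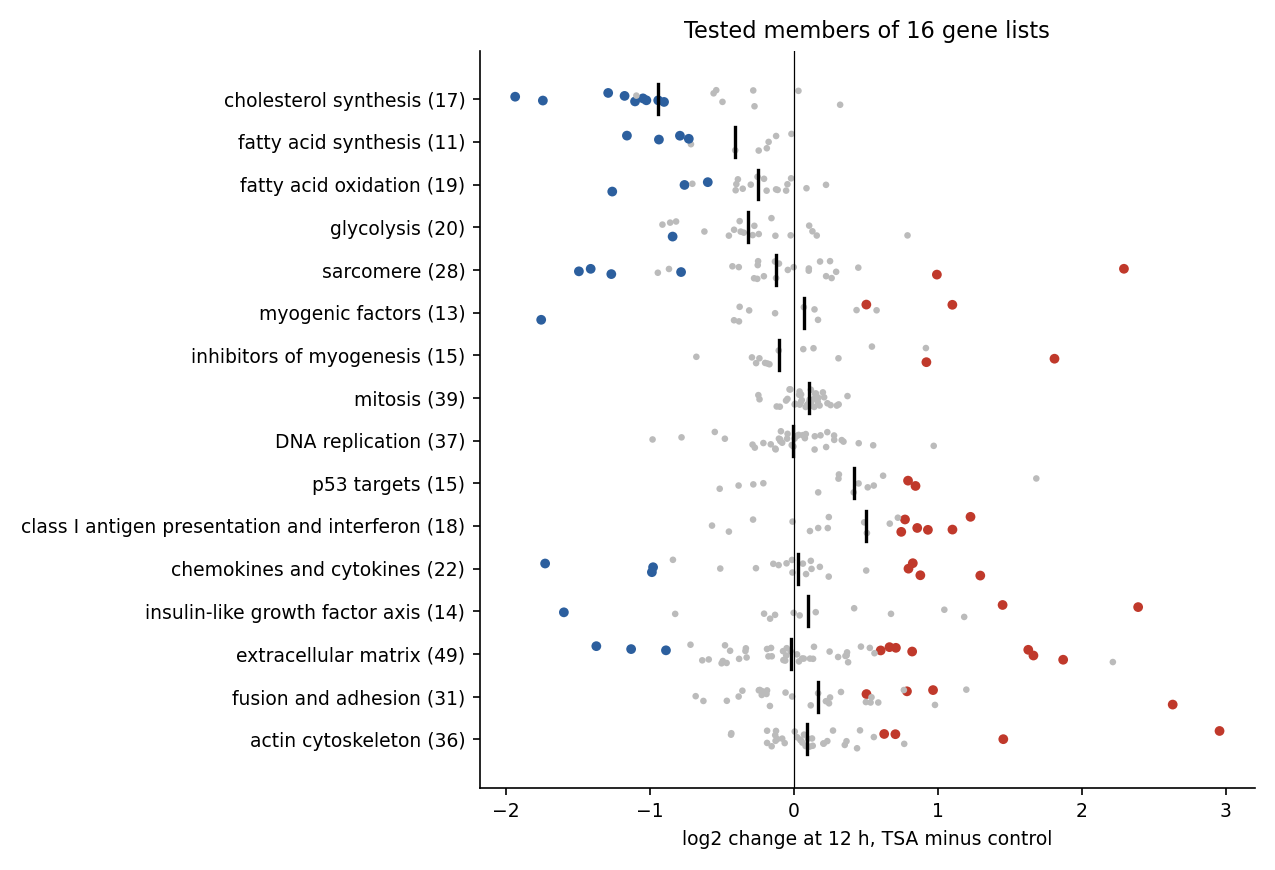
Log2 change at 12 h, TSA minus control, of the tested members of 16 gene lists (number tested in brackets); each point is a gene, red or blue where it passed, and black bars are medians. The median of cholesterol synthesis lies at -0.94, that of class I antigen presentation and interferon at 0.50 and that of mitosis at 0.11.

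Secreted regulators moved both ways. Of 14 genes of the insulin-like growth factor axis 2 rose and 1 fell, all of them binding proteins. Igfbp2 read 4354 and 4660.4 on the control arrays and 12406 and 12697 on the TSA arrays, 2.78-fold higher (log2 change 1.45 ± 0.12, adjusted p = 4.40e-05). Igfbp3 read 15.5 and 206 on the control arrays and 1322 and 855 on the TSA arrays (log2 change 2.39 ± 0.32, adjusted p = 9.35e-04), and its other probe set was at or below 0 on both control arrays and at 1951 and 1190.06 with TSA. Igfbp6 read 4212 and 4268 on the control arrays and 1303 and 1318 on the TSA arrays, 3.24-fold lower (log2 change -1.60 ± 0.36, adjusted p = 0.0260). The Igfbp6 call was lost without any 1 of the 4 arrays (adjusted p = 0.0905 to 0.143). Igf2 was at or below 0 on all 4 arrays, which gives no comparison. In the activin, myostatin and TGF-beta family 3 of 30 rose and 0 fell (median 0.23): Ski, a Smad corepressor (0.68 ± 0.13, adjusted p = 0.0106), Tgfb3, a ligand (0.59 ± 0.13, adjusted p = 0.0266), and Dcn, the proteoglycan decorin (0.82 ± 0.20, adjusted p = 0.0399). The first was lost without control replicate 2 (adjusted p = 0.119), TSA replicate 1 (0.101) or TSA replicate 2 (0.0609), the second without any 1 of the 4 arrays (adjusted p = 0.0821 to 0.222) and the last without control replicate 1 (adjusted p = 0.197), control replicate 2 (0.0748) or TSA replicate 2 (0.316). Fst, the myostatin antagonist follistatin, had 312 and 290.2 with TSA against 89.1 and 199 in control and did not pass (0.67 ± 0.19, adjusted p = 0.0808), and Mstn, myostatin, stood at -0.11 ± 0.34.

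Class I antigen presentation and interferon genes were higher in 6 of 18 and lower in 0 (median 0.50); 9 and 1 had an unadjusted p under 0.05 in each direction. H2-D1 read 3790.3 and 3913 on the control arrays and 7167 and 7792 on the TSA arrays (log2 change 0.93 ± 0.11, adjusted p = 3.64e-04) and H2-K1 5077 and 5345 on the control arrays and 8902 and 9097 on the TSA arrays (log2 change 0.77 ± 0.11, adjusted p = 0.00181); both are class I heavy chains. B2m, their light chain, had 11950.4 and 12279.5 with TSA against 6984 and 7345 in control (0.75 ± 0.12, adjusted p = 0.00342), and Ly6e, an interferon-induced membrane protein, 7335 and 6833 with TSA against 2859 and 3031 in control (1.23 ± 0.14, adjusted p = 3.64e-04). These 4 stayed called without each array. Ifitm3 (11507 and 11214 with TSA against 7307 and 5268 in control; 0.86 ± 0.17, adjusted p = 0.0106) was lost without control replicate 2 (adjusted p = 0.124), TSA replicate 1 (0.0832) or TSA replicate 2 (0.0721), and Ifitm2 (1.10 ± 0.23, adjusted p = 0.0151) without control replicate 1 (adjusted p = 0.0899), TSA replicate 1 (0.0836) or TSA replicate 2 (0.114). H2-Q5, outside that list, rose as well (1315 and 1104 with TSA against 205 and 102 in control; 2.23 ± 0.26, adjusted p = 4.04e-04). The heavy chain genes are near-identical copies and their probe sets may share signal, and of 2 other probe sets of H2-K1 1 rose (1.37 ± 0.25, adjusted p = 0.00796) and 1 did not pass (-0.58 ± 0.28, adjusted p = 0.317). Of 2 other probe sets of H2-D1 1 rose (1.04 ± 0.14, adjusted p = 9.73e-04) and 1 did not pass (0.47 ± 0.16, adjusted p = 0.146).

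Chemokines and cytokines were split, with 4 higher and 3 lower of 22. Cxcl12, a chemokine that attracts progenitor cells, had 388 and 709 with TSA against 1799 and 2378 in control, 3.81-fold lower (log2 change -1.73 ± 0.29, adjusted p = 0.00450). The Cxcl12 call was lost without control replicate 2 (adjusted p = 0.0586) or TSA replicate 1 (0.0630). Ccl2 (-0.98 ± 0.25, adjusted p = 0.0430) and Ccl7 (-0.98 ± 0.20, adjusted p = 0.0162), which attract monocytes, fell, the first lost without any 1 of the 4 arrays (adjusted p = 0.112 to 0.276) and the second without control replicate 2 (adjusted p = 0.147) or TSA replicate 1 (0.171). Socs2, an inhibitor of cytokine signalling, had 647 and 696 with TSA against 312 and 344 in control (0.80 ± 0.12, adjusted p = 0.00168) and stayed called without each array. Pdgfa (0.88 ± 0.15, adjusted p = 0.00571), Cx3cl1 (0.83 ± 0.16, adjusted p = 0.0117) and Ptgs2 (1.30 ± 0.30, adjusted p = 0.0309) rose, lost without TSA replicate 2 (adjusted p = 0.0699), without control replicate 1 (adjusted p = 0.0786) or TSA replicate 2 (0.139) and without control replicate 2 (adjusted p = 0.280), TSA replicate 1 (0.128) or TSA replicate 2 (0.193) respectively. F3, tissue factor, which starts coagulation, read 894 and 857 on the control arrays and 119 and 68.8 on the TSA arrays, the largest fall among genes with all 4 arrays above 0 (log2 change -2.14 ± 0.20, adjusted p = 1.11e-04). The signalling genes Gnai1, an inhibitory G protein subunit (207 and 227 with TSA against 876 and 766 in control, 3.78-fold lower; -1.43 ± 0.16, adjusted p = 3.50e-04), and Rgs3, which switches such subunits off (722 and 966 with TSA against 1829.9 and 2199 in control, 2.39-fold lower; -1.14 ± 0.13, adjusted p = 4.04e-04), also fell, and these 3 stayed called without each array. Another probe set of Gnai1 did not pass (-0.97 ± 0.36, adjusted p = 0.188). Mapk12, a stress kinase of muscle (186 and 262 with TSA against 553 and 1076 in control; -1.35 ± 0.31, adjusted p = 0.0291), and Fcgr3, a receptor for antibody best known from leukocytes (148 and 9.64 with TSA against 478 and 424 in control; -1.52 ± 0.38, adjusted p = 0.0417), fell, the first lost without control replicate 2 (adjusted p = 0.266), TSA replicate 1 (0.196) or TSA replicate 2 (0.103) and the second without control replicate 1 (adjusted p = 0.141), control replicate 2 (0.159) or TSA replicate 2 (0.337). Dcaf12, an adaptor of a ubiquitin ligase, read -125 and -196 on the control arrays and 414 and 581 on the TSA arrays (adjusted p = 0.00202), and Tollip, an adaptor of Toll-like receptor signalling, -125 and -254 on the control arrays and 269 and 209 on the TSA arrays (adjusted p = 0.00353); both controls lay below 0 in each, so no fold is given.

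In the remaining lists few members passed, beside 2.43% higher and 1.63% lower over all genes. Of 32 genes for endoplasmic reticulum stress and the amino acid response 1 rose (Atf6, 0.54 ± 0.12, adjusted p = 0.0201) and 2 fell (Psat1, -0.51 ± 0.10, adjusted p = 0.0158; Asns, -0.64 ± 0.16, adjusted p = 0.0479), and 10 had a negative change at an unadjusted p under 0.05. Of 38 genes of oxidative phosphorylation Ndufb5 fell (-0.49 ± 0.11, adjusted p = 0.0208). Among oxidative stress genes Gsto1 rose (0.52 ± 0.11, adjusted p = 0.0151) and Sod2 fell (-0.63 ± 0.15, adjusted p = 0.0319), and among heat shock genes Dnaja1 rose (0.58 ± 0.14, adjusted p = 0.0430) and Fkbp4 fell (-0.74 ± 0.17, adjusted p = 0.0240). Each of these 8 calls was lost without at least 1 array: Gsto1 without control replicate 2 (adjusted p = 0.134), TSA replicate 1 (0.0792) or TSA replicate 2 (0.124), and the other 7 without any 1 of the 4, at an adjusted p of 0.059 or more. Car2, another carbonic anhydrase, had 944 and 956 with TSA against 387 and 377 in control (1.07 ± 0.26, adjusted p = 0.0363). The Car2 call was lost without any 1 of the 4 arrays (adjusted p = 0.110 to 0.186). No gene of ribosome biogenesis (33 tested), of the proteasome and ubiquitin ligases (34) or of globins and heme (12) was called by limma, with 3, 5 and 4 at an unadjusted p under 0.05.

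The other times, which share no array with 12 h but share the estimate of spread, show how far the 12 h genes changed there too. At 4 h TSA raised 337 genes (5.98%) and lowered 333 (5.91%), and at 24 h 156 (2.77%) and 196 (3.48%). The counts were 476 (8.45%) and 585 (10.4%) at 0 h and 617 (10.9%) and 515 (9.14%) at 48 h. Of the 137 genes higher at 12 h 78 were also higher at 4 h, 56.9% of them and 23.1% of those higher at 4 h, and 46 at 24 h (33.6% and 29.5%). Of the 92 lower genes 40 were also lower at 4 h (43.5% and 12.0%) and 30 at 24 h (32.6% and 15.3%). At 48 h 16 of the 92 were higher (17.4%) and 14 lower (15.2%). The genes called the same way at each of the 5 times were 20 higher, among them Car3, Npnt, Pfn2, Igfbp2, Igfbp3, Tnc, Tnfsf9 and Rnase4, and 1 lower, F3. Another 18 higher and 18 lower genes were called at 12 h and at no other time, which is not a test of a difference.

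Untreated cells at 48 h against 0 h raised 940 genes (16.7%) and lowered 1094 (19.4%), which gives the direction of differentiation from arrays that the 12 h comparison does not use. Of the 137 genes higher with TSA at 12 h 53 rose in that course (38.7%) and 39 fell (28.5%). Of the 92 lower genes 34 fell (37.0%) and 28 rose (30.4%). Among the latter were Myog (6.59 ± 0.44 in control cells), Tnnt1 (4.92 ± 0.18), Tnni1 (5.84 ± 0.34), Tnnc1 (6.97 ± 0.26) and Mybph (5.96 ± 0.14). Id2, higher with TSA, fell in control cells (-4.42 ± 0.25), whereas Myod1 (1.37 ± 0.11), Ncam1 (1.26 ± 0.13), Cd82 (2.15 ± 0.13) and Cdh15 (1.77 ± 0.12), also higher with TSA, rose.

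The difference between the effect at 12 h and that at 4 h passed for 109 probe sets (1.46%), and for 8 of the 39 mitosis genes, each higher. Those genes were lower with TSA in 21 of 39 at 4 h (median -0.66) and in 0 at 12 h. Cdc20, which triggers anaphase, had an effect of -1.21 ± 0.16 at 4 h and 0.15 ± 0.16 at 12 h (difference 1.36 ± 0.23, adjusted p = 0.0149). Anln, a cytokinesis scaffold, had -1.32 ± 0.14 and -0.05 ± 0.14 (difference 1.26 ± 0.21, adjusted p = 0.0132), and Tacc3, a spindle protein, -0.97 ± 0.14 and 0.31 ± 0.14 (difference 1.28 ± 0.20, adjusted p = 0.0113). Of the 8 differences 5 remained without control replicate 1, 3 without control replicate 2, 2 without TSA replicate 1 and 1 without TSA replicate 2. The whole count of probe sets was 101, 39, 35 and 25 in that order. Tnni1 went the other way, from 2.07 ± 0.34 at 4 h to -1.41 ± 0.34 at 12 h (difference -3.48 ± 0.48, adjusted p = 0.00508), and Cpt1a from 0.46 ± 0.16 to -1.26 ± 0.16 (difference -1.72 ± 0.22, adjusted p = 0.00349).

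Between 12 h and 24 h the difference passed for 114 probe sets (1.53%), and for 8 of the 17 cholesterol synthesis genes. In each of the 8 the effect at 12 h was below that at 24 h. Ebp was among them (difference -0.98 ± 0.16, adjusted p = 0.00978), though it was not lower with TSA at 12 h. At 24 h 0 of the 17 were lower and 1 was higher (median -0.09). The genes were already lower at 4 h, in 11 of 17 with 0 higher (median -1.16), among them Hmgcs1 (-2.15 ± 0.16), Msmo1 (-2.46 ± 0.28) and Lss (-2.19 ± 0.21). The difference between 12 h and 4 h passed in Hmgcs1 alone of the 17, higher at 12 h (1.13 ± 0.23, adjusted p = 0.0366), and not without any 1 of the 4 arrays (adjusted p = 0.0798 to 0.127). Idi1 had an effect of -1.10 ± 0.13 at 12 h and 0.39 ± 0.13 at 24 h (difference -1.49 ± 0.19, adjusted p = 0.00155), which held without each array (adjusted p = 0.00445 to 0.0150). Lss had -0.14 ± 0.21 at 24 h (difference -1.60 ± 0.30, adjusted p = 0.0189), Mvd -0.51 ± 0.20 (-1.42 ± 0.28, adjusted p = 0.0253) and Fdps -0.09 ± 0.13 (-1.09 ± 0.19, adjusted p = 0.0116). Of the 8 differences 5 remained without control replicate 1, 4 without control replicate 2, 4 without TSA replicate 1 and 1 without TSA replicate 2. The whole count was 122, 65, 58 and 42. In untreated cells at 48 h against 0 h 11 of the 17 genes fell and 1 rose. For the sarcomere, 4 genes had a higher effect at 12 h than at 24 h and Tnnt1 a lower one. Actc1, cardiac actin, had -0.21 ± 0.14 at 12 h and -1.51 ± 0.14 at 24 h (difference 1.30 ± 0.20, adjusted p = 0.00801). Another probe set of Actc1 was lower at 12 h, at -0.95 ± 0.29, and did not pass (adjusted p = 0.101). Myh3, embryonic myosin, had -0.12 ± 0.14 and -1.46 ± 0.14 (difference 1.34 ± 0.19, adjusted p = 0.00549).

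Against the mean effect of the other 4 times, 98 probe sets differed at 12 h (1.31%), or 92, 16, 18 and 10 without control replicates 1 and 2 and TSA replicates 1 and 2. Myog differed by -2.20 ± 0.49 (adjusted p = 0.0494) and Mvd by -1.30 ± 0.22 (adjusted p = 0.0154). Vcan differed by 1.39 ± 0.19 (adjusted p = 0.00649): its effect was 1.16, 1.74 and 1.63 at 0, 4 and 12 h, 0.15 at 24 h and -2.08 at 48 h. Fst differed by -1.59 ± 0.21 (adjusted p = 0.00511), with effects of 1.54, 2.56, 0.67, 0.45 and 4.48 at 0, 4, 12, 24 and 48 h. Ckb, the brain-type creatine kinase, read 2579 and 3134 with TSA against 1888 and 2045 in control at 12 h (0.50 ± 0.13, adjusted p = 0.0468) and had effects of 2.98, 2.44, -0.01 and 3.19 at 0, 4, 24 and 48 h. The Ckb call at 12 h was lost without any 1 of the 4 arrays (adjusted p = 0.0586 to 0.353). Rgs3 fell at 12 h (-1.14) and 4 h (-0.66) and rose at 24 h (0.66), with -0.04 at 0 h and 0.01 at 48 h. With 1 array of 12 h left out the highest adjusted p of this difference was 0.00973 for Ckb and 0.0459 for Rgs3, 0.0509 for Vcan, 0.0596 for Fst, 0.101 for Mvd and 0.217 for Myog.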

How the data were processed

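The authors deposited a linear intensity for each probe set on each array, scaled to a common trimmed mean in the TSA arm as the values show; the sources used here do not give the tool, and some values lie below 0. Of 12488 probe sets 66 array controls were left out. Among the rest 10833 had 1 gene symbol in the platform annotation, 396 several and 1193 none, and 10817 symbols were updated by Entrez number. Values below 0 were set to 0, the pseudocount of 137.7 was added (the 40th percentile) and log2 taken. Probe sets were tested where their mean over the 20 arrays passed 144.9 (7453), and a gene was represented by its tested probe set of highest mean. limma 3.58.1 in R 4.3.3 fitted 1 mean per treatment and time over all 20 arrays, with 10 residual degrees of freedom and Benjamini-Hochberg adjustment over all 7453. Promoters were searched with Python 3.11.15.

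Genes were named by rule: a fixed set of myogenic and cell cycle genes, the 15 largest changes per direction among called genes with all arrays above 0, up to 8 per direction with the lower group at or below 0, up to 4 called members of smallest p per list, and up to 6 per direction for the difference from the other times. Other genes in the text are members of the lists, chosen after their values were seen. The comparison, its members and the gene lists were chosen with earlier results of these data known. The labels do not say whether replicate numbers pair the samples, and the main fit used no block. Deviations of same-numbered arrays correlated at 0.172 at 12 h and 0.228 at 24 h. At 0, 4 and 48 h the values were -0.0997, -0.0944 and -0.0984. With a block within each time 120 of the 229 called genes stayed called. The alternatives tried were other normalizations, pseudocounts, filters, eBayes settings, replicate blocks, leaving out arrays, and the 4 arrays alone.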

Additional observations from a re-analysis of the deposited data

Results flagged for a closer look

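In 29 of the genes named by rule, the effect of TSA at 12 h differed from its mean effect at the other 4 times in a limma contrast with an adjusted p under 0.05. Over all 5636 genes 79 passed in this contrast. The rules chose genes partly by this contrast and partly by their change at 12 h, so the 29 do not measure an excess. Cox6a2 (0.84) and Myh7 (-0.80) passed too and are not counted, since both were at or below 0 on all 4 arrays of 12 h and so had no measured effect there. Values in brackets are that difference on the log2 scale. Among muscle and growth factor genes the effect was lower at 12 h in Myog (-2.20), Tnni1 (-1.71), Ckb (-1.65) and Fst (-1.59). Among cholesterol synthesis genes it was lower in Mvd (-1.30), Lss (-1.08), Fdps (-0.94), Nsdhl (-0.92) and Idi1 (-0.76), and among other lipid genes in Cpt1a (-0.91), Scd1 (-0.77), Acly (-0.75) and Slc25a1 (-0.71). It was also lower in Ndrg4 (-1.68), Ahr (-1.28), Rgs3 (-1.13), Gnai1 (-0.86) and Sod2 (-0.76). It was higher at 12 h in Ski (0.74), Socs2 (0.76), Cyb5r1 (0.92), Ifitm3 (1.16), Tollip (1.22), Txnip (1.33), Vcan (1.39), H2-Q5 (1.50), Aspm (1.80), Actb (1.97) and Dcaf12 (2.38). With each of the 4 arrays of 12 h left out in turn, the difference stayed past the threshold in Ndrg4, Ckb, Ahr, Rgs3 and Aspm, and in the other 24 it was lost without at least 1 array. A difference from the mean of the other 4 times need not set 12 h apart from each of them. At 4 h the cholesterol synthesis list was lower in 11 of 17 genes (median -1.16), against 9 (median -0.94) at 12 h. The rise of Vcan at 4 h was no smaller than that at 12 h. The causes of the differences from the other times were not tested.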

How the results depend on the processing

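Called probe sets at 12 h (304) numbered 111 to 264 without 1 array and 165 with the replicate number as a block within each time; with only the 4 arrays of 12 h limma called 0 (1290 at an unadjusted p under 0.05), a fit with fewer samples and so fewer residual degrees of freedom. Same-numbered arrays deviated in the same direction at 12 h and 24 h only, and weakly. The block over the whole arm left 192 of the 229 called genes called, and that within each time left 120. The difference between 12 h and 4 h (109) numbered 177 with no filter, 217 with a filter at the 60th percentile, 189 with an intensity trend, 49 with the block over the arm, 0 with the block within time (1037 unadjusted) and 25 to 101 without 1 array. That between 12 h and 24 h (114) numbered 24 with the block within time, 33 without the arrays with b in the title and 42 to 122 without 1 array. That between 12 h and the other times (98) numbered 173 with no filter, 152 with the 60th percentile, 65 with the block over the arm, 0 with the block within time (1003 unadjusted), 55 without the b arrays and 10 to 92 without 1 array. At 24 h the count of 443 became 247 with the block within time and 186 without the b arrays. Apart from settings that change the number of tests or samples, the cause was not tested. Over all results and alternatives 1787 values stayed the same, 349 kept the direction but lost the call and 5 kept it and gained the call. A further 88, all of them counts, moved, and 0 reversed. A count stayed the same if it remained near its main value, and a gene if it remained on its side of the threshold. Genes called in neither fit were placed there whatever their direction, so the 0 covers called genes only. Depth is signal over background here: genes near 0 have no fold.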
